A study of Arabidopsis thaliana with 12 samples.

Results

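The XTH family comprises the xyloglucan endotransglucosylase/hydrolases of Arabidopsis, XTH1 to XTH33. Its 33 loci were taken by locus number and found on the array through the locus or its RefSeq transcript, and the brightest probe stood for each. All 33 were among the 25433 loci that the probes matched. Of these, 29 were bright enough to be tested, among 25205 genes in all.

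XTH enzymes are secreted to the cell wall, where they cut xyloglucan, the hemicellulose that coats and links cellulose microfibrils. The cut end is then joined to another xyloglucan chain or, in the case of hydrolysis, to water. In roots they are best known from the elongation zone and from root hairs, whose walls are remodelled while the cell grows.

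The arrays measured RNA from roots of 7-day-old Arabidopsis seedlings of the WT Col-0 and the null mutant agb1-3 (agb1), which lacks the G protein beta subunit AGB1. Whole seedlings had been placed in MS liquid medium with 150 mM NaCl for 0 h or 4 h before the roots were taken, which gave the 4 groups WT 0 h, WT 4 h, agb1 0 h and agb1 4 h with 3 arrays each. The sample labels call the control 0 h of immersion, whereas the methods of the study describe it as 4 h in medium without NaCl. If the labels are right, 4 h of immersion and 4 h of salt cannot be told apart. The mutant is represented by 1 allele, and the number of seedlings pooled in a sample is not given in the sources used here. The question was how the salt response of roots differs when AGB1 is missing.

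Levels are given as the log2 signal, which is the background-corrected intensity divided by the array's 75th percentile, on the log2 scale, and a log2 difference is a difference of group means on that scale. Levels of different genes are not comparable, since each comes from its own probe. A member was counted as higher or lower when limma's test gave an adjusted p below 0.05 and the change was at least 2-fold. Adjusted p-values are those of limma with Benjamini-Hochberg adjustment over all 25205 genes.

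The share of spots well above background was 74.1% to 76.1%. In agb1 at 0 h, replicates 1 and 2 lay closer together than repeated spots of a probe do, so they were counted as 1 sample, which left 11 samples. Replicate 3 of WT at 4 h and replicate 3 of agb1 at 0 h stood apart from the other arrays of their groups, and both lay on slide 3. Whether these samples were mixed or exchanged in part was not tested, and their labels were kept. Values with both left out are given for some of the members they concern. Calls of other members changed as well in that fit, which leaves 1 sample of agb1 at 0 h. AGB1 itself had log2 signals of 1.42, 1.64 and 1.46 in WT at 0 h, against 0.07, -0.09 and 0.63 in the mutant. After 4 h the values were 1.58, 1.32 and 1.26 in WT, against 0.88, 0.39 and 0.67. The genotypes did not overlap at either time, and both arrays that stood apart lay with the genotype of their labels, with a log2 difference of -1.2 (adjusted p = 0.0341) at 0 h and -0.74 (adjusted p = 0.112) at 4 h. Where the AGB1 probe lies relative to the mutation is not known here. All 7 root identity genes were above background on all 12 arrays, and so were all 8 genes of green shoot tissue. The summed level of the latter (signals divided by the 75th percentile of the array and added) was 8.5 to 11.2 in WT at 0 h, 5.84 to 16.5 in WT at 4 h, 3.68 to 5.21 in agb1 at 0 h and 7.86 to 11.3 in agb1 at 4 h. It was thus lowest in agb1 at 0 h, without overlap with the other groups, although 0 of the 8 genes were called in any comparison.

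The 4 members that could not be tested were XTH1 (AT4G13080), XTH3 (AT3G25050), XTH6 (AT5G65730) and XTH25 (AT5G57550). XTH1, XTH3 and XTH6 were well above background on 0 of 12 arrays. XTH25 was above background on 1 array, replicate 1 of WT at 0 h. Of the 29 others, XTH29 was above background in WT at 4 h alone, on all 3 arrays, and XTH2 was above background on 3 arrays of WT at 0 h and on 1 array of each other group. Each of them entered the test only through that group, in which it was high, so that a difference from the group is partly set by the filter on dim probes. XTH13 missed background on 1 array of agb1 at 4 h. One spot of XTH9 was marked as an outlier on the array of WT 0 h replicate 2, so that its WT mean at 0 h rests on 2 arrays.

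**Figure D1:**
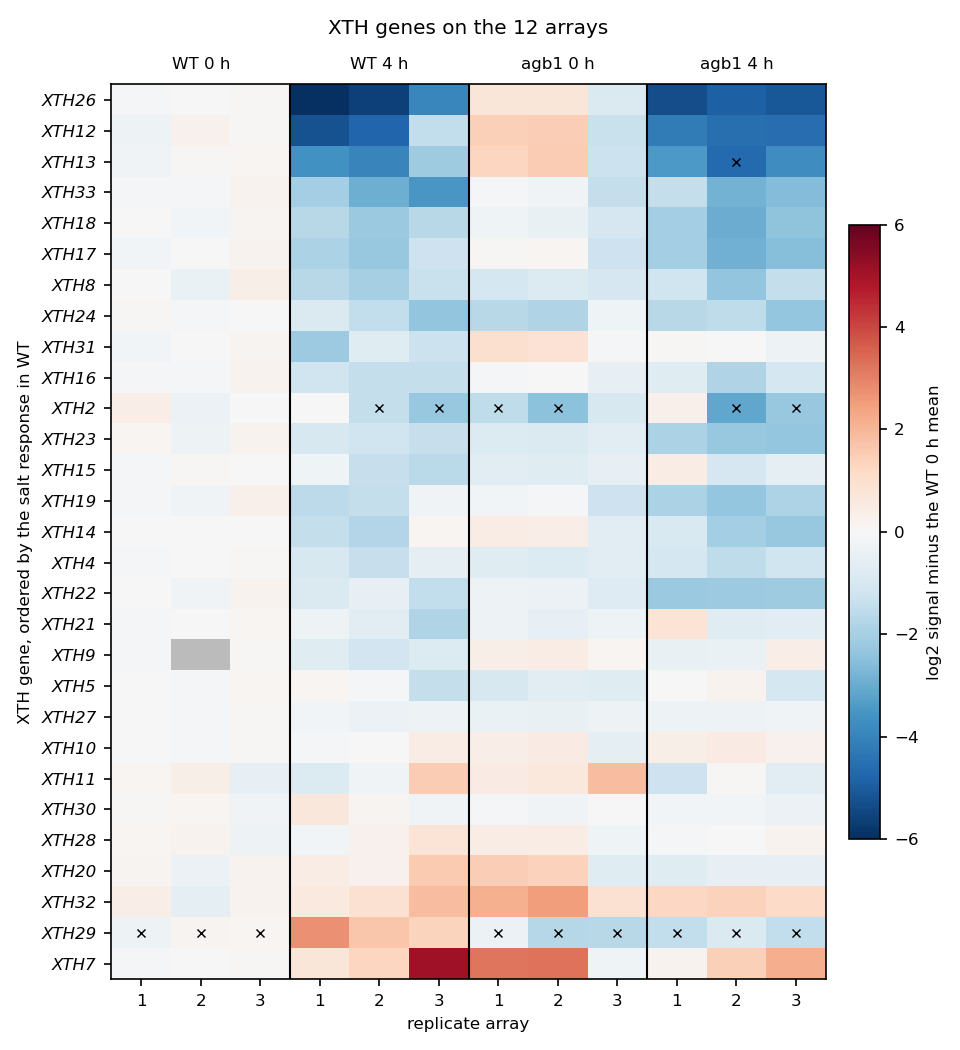
Log2 signal of the 29 tested XTH genes on each of the 12 arrays, minus the mean of WT at 0 h, as colour from blue (lower) to red (higher). Crosses mark spots not well above background and grey the outlier spot of XTH9. XTH26, XTH12 and XTH13 are darkest blue at 4 h in both genotypes, while replicate 3 of WT at 4 h is paler for XTH12 and red for XTH7.

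In WT, 11 of the 29 members were lower after 4 h of salt and 1 was higher, against a background of 3.99% of all genes lower and 5.82% higher. The log2 differences of the members ranged from -5.28 to 2.37 with a median of -1.01, beside -0.10 for all genes tested, and 21 of 29 lay below 0. The members that fell furthest were XTH26, XTH12 and XTH13, which are known from roots, XTH26 in particular from root hairs.

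XTH26 (AT4G28850) had a log2 signal of -0.17, -0.05 and -0.01 in WT at 0 h and of -6.41, -5.66 and -4.01 at 4 h. The highest array at 4 h thus lay far below the lowest at 0 h. The log2 difference was -5.28 ± 0.57 (SE, adjusted p = 0.000591), or 39.0-fold lower. It was -6.23 on slide 1 and -4.0 on slide 3, the 2 slides that held both times for WT.

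XTH12 (AT5G57530) had values of -1.27, -0.74 and -0.93 at 0 h and of -6.19, -5.74 and -2.45 at 4 h in WT. XTH13 (AT5G57540), its close neighbour in the genome, had -2.98, -2.70 and -2.67 at 0 h and -6.43, -6.76 and -4.92 at 4 h. In both genes the groups did not overlap, and replicate 3 at 4 h lay between the other 4 h arrays and the 0 h arrays. The log2 difference was -3.81 ± 0.95 (adjusted p = 0.0239) for XTH12 and -3.25 ± 0.69 (adjusted p = 0.0125) for XTH13. Without the 2 arrays that stood apart it was -4.99 for XTH12 (adjusted p = 9.79e-05) and -3.81 for XTH13 (adjusted p = 0.000606). XTH12 lost its call without any single array of WT at 0 h and without replicate 1 or 2 of WT at 4 h, and XTH13 without replicate 2 of WT at 4 h. XTH12 and XTH13 are close paralogs, and whether their probes also bind each other's RNA was not tested, as no probe sequences were used here.

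XTH33 (AT1G10550), which is known as a membrane-anchored member of the family, had -2.25, -2.23 and -1.95 in WT at 0 h and -4.18, -5.07 and -5.63 at 4 h. Here replicate 3 was the lowest array at 4 h and not the highest, unlike for XTH26, XTH12 and XTH13. The log2 difference was -2.82 ± 0.48 (adjusted p = 0.00501), with -1.92 on slide 1 and -3.68 on slide 3.

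XTH17 and XTH18 belong with XTH19 and XTH20 to a group of closely related genes known from root elongation and differentiation zones. XTH18 (AT4G30280) had 5.07, 4.88 and 5.25 at 0 h and 3.41, 2.82 and 3.38 at 4 h, a log2 difference of -1.86 ± 0.28 (adjusted p = 0.00293). XTH17 (AT1G65310) had 0.76, 0.92 and 1.14 at 0 h and -0.96, -1.32 and -0.29 at 4 h, a log2 difference of -1.80 ± 0.38 (adjusted p = 0.0118). Both fell without overlap of the groups, and the call of XTH17 was lost without replicate 3 of WT at 0 h. XTH19 (AT4G30290) had a log2 difference of -1.07 (adjusted p = 0.0867) and XTH20 (AT5G48070) one of 0.76 (adjusted p = 0.325), so neither passed. Binding of the RNA of one of these genes by the probe of another was not tested either.

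The other members that fell in WT were XTH8, XTH24, XTH31, XTH16 and XTH23, each without overlap of the groups. XTH8 (AT1G11545) had 1.55, 1.11 and 1.89 at 0 h and -0.16, -0.48 and 0.17 at 4 h, with a log2 difference of -1.67 (adjusted p = 0.00786). XTH24 (AT4G30270), once named MERI5 for its expression in meristems, had 4.30, 4.20 and 4.26 at 0 h and 3.39, 2.76 and 1.88 at 4 h. Its log2 difference was -1.57 (adjusted p = 0.0374), and 4 further probes of the gene gave -1.5 to -1.71. XTH23 (AT4G25810), a relative of the touch gene XTH22, had 3.18, 2.80 and 3.28 at 0 h and 2.13, 1.91 and 1.71 at 4 h. The change of XTH23 was the smallest of those counted, at -1.17 ± 0.18 (adjusted p = 0.0032), but it was called in each alternative and without each array in turn. XTH31 (AT3G44990), known for hydrolysing xyloglucan, changed by -1.40 (adjusted p = 0.0266) and XTH16 (AT3G23730) by -1.35 (adjusted p = 0.00902). XTH24 and XTH31 each lost the call without any single array of WT at 0 h, XTH24 also without replicate 2 or 3 of WT at 4 h and XTH31 without replicate 1.

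XTH29 (AT4G18990) was the 1 member called higher in WT, where it entered the test only through the arrays at 4 h. Its log2 signal was -8.13, -7.66 and -7.72 at 0 h, where no array was well above background, and -5.10, -6.16 and -6.49 at 4 h, well above background on all 3. The lowest signal well above background stood in for 0 h where it was higher than the measured one. On this bound the group mean was at least 3.13-fold higher at 4 h, without regard to the spread of the arrays. The measured log2 difference was 3.03 on slide 1 and 1.24 on slide 3. Since the gene entered the test through the arrays at 4 h, no support is drawn from this fold. The adjusted p of 0.00691 belongs to the measured log2 difference of 1.92 and is partly set by the filter on dim probes. XTH29 has been described as a stress-induced member that reaches the wall by an unusual secretion route. XTH7 (AT4G37800) had the largest positive log2 difference at 2.37, which did not pass (adjusted p = 0.186). In WT at 4 h its values were -4.06, -3.46 and 0.31, so that the mean was set by replicate 3.

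Among the 17 members not counted in WT, XTH4 and XTH22 had an adjusted p below the threshold but changed by less than 2-fold. XTH4 (AT2G06850), known from stems and wood formation, had a log2 difference of -0.98 (adjusted p = 0.00956). XTH22 (AT5G57560), the touch-induced gene TCH4, had one of -0.95 (adjusted p = 0.0239). The remaining 15 lay between -1.25 for XTH2 and 2.37 for XTH7. XTH30 (AT1G32170), known for a part in salt tolerance, had a log2 difference of 0.21 (adjusted p = 0.502).

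With slide as a fixed block, which in effect removes the array of WT 0 h replicate 2 because it lay alone on slide 2, 5 of the 11 lower members were called, XTH26, XTH33, XTH18, XTH8 and XTH23, and XTH29 was not (adjusted p = 0.0616). Without the 2 arrays that stood apart, which leaves 1 sample of agb1 at 0 h, the median of the members in WT was -0.92. Without replicate 3 of WT at 4 h alone 13 were lower, with XTH14, XTH19 and XTH4 added and XTH24 lost. In that fit 10.1% of all genes were called in either direction, against 9.8% over the 11 samples.

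By subfamily, 9 of the 22 tested members of group I/II fell, where 3.99% of all genes did. So did 1 of 2 members of group IIIA (XTH31) and 1 of 5 members of group IIIB (XTH33). XTH29 of group IIIB rose, where 5.82% of all genes did, but it was tested only through the arrays at 4 h. Group IIIA holds the members known mainly as hydrolases. Their medians were -1.07, -0.14 and 0.21.

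Root hair genes were set beside the members that fell furthest. The summed level of 8 root hair genes was 9.73 to 11.1 in WT at 0 h. At 4 h it was 4.74, 3.81 and 12.9 in WT, high in replicate 3. In agb1 it was 16.3, 16.9 and 7.30 at 0 h and 4.26 to 5.10 at 4 h, and all 8 genes were above background on every array. Of the 8, PRP3, a structural wall protein of root hairs, was the only one called, in WT after salt (log2 difference -2.28, adjusted p = 0.0323), or 1 of 8 where 3.99% of all genes were lower. In bulk root RNA, fewer cells of a type and less RNA per cell cannot be told apart, and the part of root hair cells in the XTH differences was not tested. On slide 3 the summed level was 11.1 in WT at 0 h and 12.9 at 4 h, the latter on an array that stood apart. There EXPA7 (0.18 to 1.93), RSL4, EXPA18 and COBL9 of the root hair genes were higher at 4 h. PRP3 (1.57 to 0.90), LRX1, MRH6 and RHD6 were lower. On this slide XTH26 was lower at 4 h by 4.00, XTH33 by 3.68, XTH13 by 2.25, XTH18 by 1.86, XTH23 by 1.57 and XTH12 by 1.52 on the log2 scale. XTH14 was higher by 0.13, XTH20 by 1.37 and XTH7 by 5.01.

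**Figure D2:**
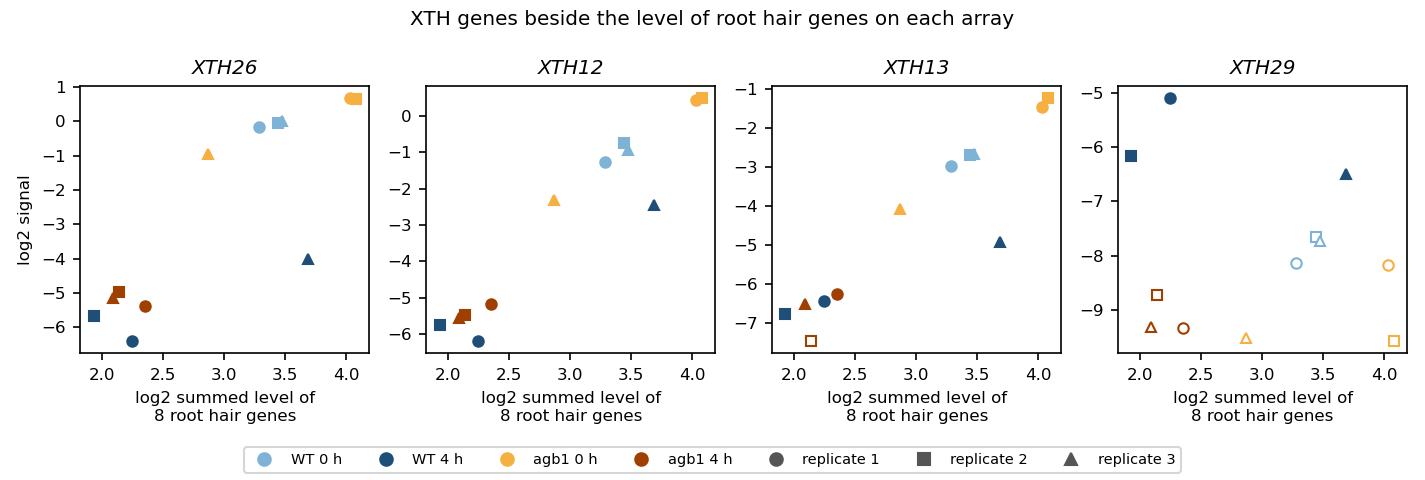
Log2 signal of XTH26, XTH12, XTH13 and XTH29 on each of the 12 arrays against the log2 of the summed level of 8 root hair genes, coloured by group, with the replicate as the symbol and open symbols for spots not well above background. Replicate 3 of WT at 4 h lies to the right with the 0 h arrays. Its XTH26 signal of -4.01 is the highest of the arrays at 4 h and below all arrays at 0 h.

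In agb1, 5 of the 29 members were lower after salt and 0 were higher, against 0.516% of all genes lower and 1.14% higher. At an unadjusted p below 0.05 and at least 2-fold, 11 were lower and 0 higher, where 2.36% and 4.22% of all genes were. The log2 differences ranged from -5.03 to 0.50 with a median of -0.68, beside -0.04 for all genes, and 23 of 29 lay below 0. Without the 2 arrays that stood apart the median of the members was -1.08 in agb1 and -0.92 in WT. With them it was -0.68 and -1.01, so which genotype had the larger median fall depended on these arrays. No count in agb1 is given for that fit, which leaves 1 sample of agb1 at 0 h. The summed level of green shoot genes was 3.68 to 5.21 at 0 h and 7.86 to 11.3 at 4 h in agb1, and its part in the XTH differences was not tested. The 5 were XTH26, XTH13, XTH18, XTH22 and XTH23. Of these, XTH22 was not counted in WT, where its log2 difference of -0.95 was below 2-fold.

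XTH26 had 0.67, 0.64 and -0.94 in agb1 at 0 h and -5.38, -4.98 and -5.16 at 4 h. XTH13 had -1.48, -1.24 and -4.09 at 0 h and -6.24, -7.45 and -6.51 at 4 h. In both, replicate 3 at 0 h was the lowest of its group and still above all arrays at 4 h. The log2 difference was -5.03 ± 0.64 (adjusted p = 0.00908) for XTH26 and -4.01 ± 0.77 (adjusted p = 0.0371) for XTH13. For XTH12 the values were 0.45, 0.49 and -2.31 at 0 h and -5.18, -5.48 and -5.55 at 4 h, again without overlap. Its log2 difference of -4.49 ± 1.07 was not past the threshold (adjusted p = 0.0657). Without the 2 arrays that stood apart, which leaves a single sample of agb1 at 0 h that is taken to vary as the other groups do, XTH12 differed by -5.88 (adjusted p = 0.000518) and XTH13 by -5.38 (adjusted p = 0.0011).

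XTH18 had 4.79, 4.64 and 4.04 at 0 h and 3.04, 2.07 and 2.66 at 4 h in agb1, with a log2 difference of -1.79 ± 0.32 (adjusted p = 0.0276). Its 0 h and 4 h arrays lay apart, as in WT. XTH22 had 2.75, 2.70 and 2.25 at 0 h and 0.81, 0.84 and 0.89 at 4 h, a change of -1.64 ± 0.27 (adjusted p = 0.0203). XTH23 had 2.25, 2.22 and 2.42 at 0 h and 1.2, 0.81 and 0.78 at 4 h, a change of -1.40 ± 0.20 (adjusted p = 0.0138). Neither gene overlapped between the times, and the 3 arrays of XTH22 at 4 h were close together. XTH17 missed the threshold with -1.91 (adjusted p = 0.0549). For XTH33 the groups overlapped, with -3.58 in replicate 1 at 4 h and -3.60 in replicate 3 at 0 h, and its difference of -1.5 did not pass (adjusted p = 0.157).

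The count in agb1 depended on single arrays. It was 3 without any one array of WT at 0 h, 1 without replicate 2 and 2 without replicate 3 of agb1 at 4 h, and 8 without replicate 3 of WT at 4 h. XTH26 was called in each of these. The count was 11 with replicates 1 and 2 of agb1 at 0 h as separate samples. It was 0 with slide as a fixed block, where the adjusted p of XTH26 was 0.0813. The share of all genes called moved as well, from 1.66% over the 11 samples to 5.54% with separate samples and 0.385% with slide as a fixed block. It was 0.504% without replicate 2 of agb1 at 4 h and 3.41% without replicate 3 of WT at 4 h. Within slides 1, 3 and 4 the difference of XTH26 was -6.06, -4.22 and -5.63, that of XTH23 was -1.05, -1.64 and -1.41, and that of XTH22 was -1.94, -1.35 and -1.86.

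**Figure D3:**
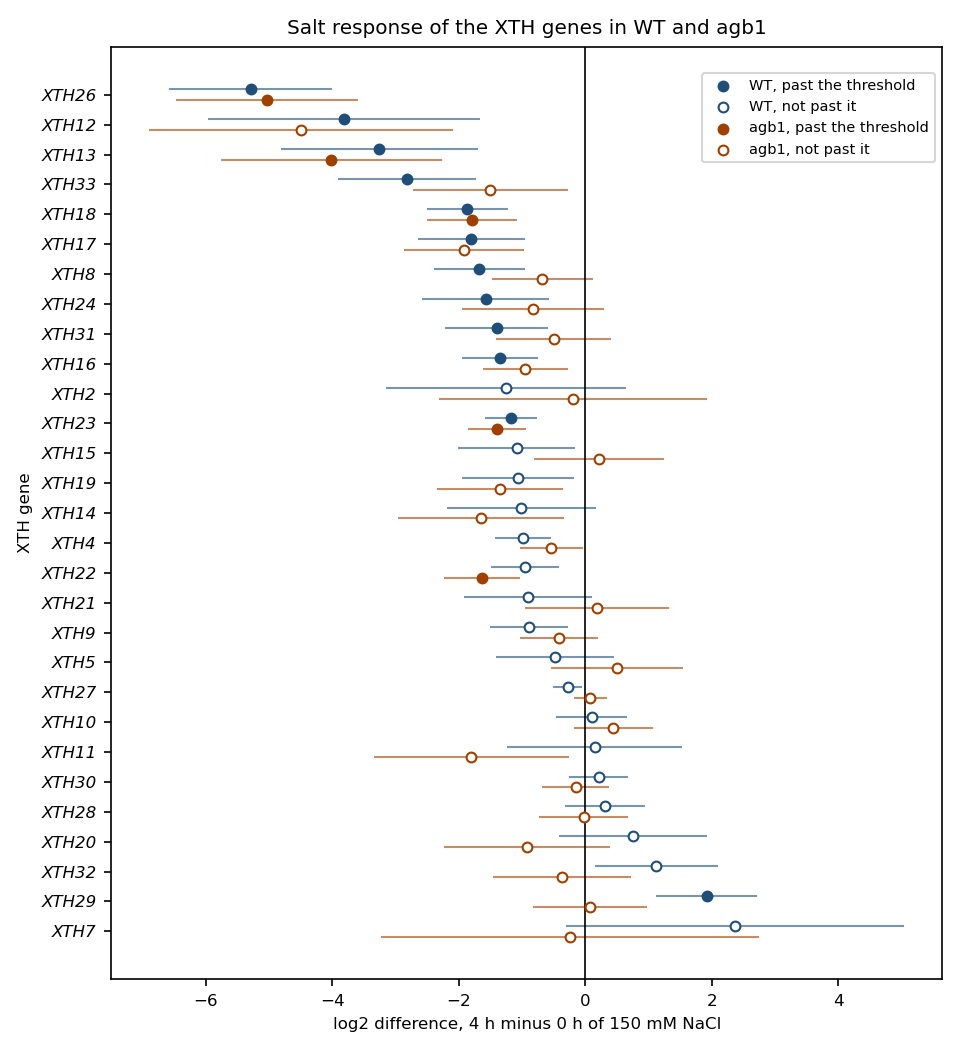
Log2 difference between 4 h and 0 h of 150 mM NaCl in WT (blue) and agb1 (brown) for the 29 tested XTH genes, with 95% confidence intervals from limma. Filled points passed the threshold. XTH26 lies near -5 in both genotypes, and XTH29 lies at 1.92 in WT, while its point for agb1 compares spots not well above background.

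Placed side by side, 19 of the 29 members had the same sign in both genotypes, and 18 had the smaller absolute difference in agb1. Shares of all genes were not taken for these counts, so neither is read as a trait of the family. The interaction, by which the response of agb1 exceeds that of WT, was called for 0 of 29 members, where 0.179% of all genes were called. For the members that fell most the interval of the difference between the responses was wide. It was -1.68 to 2.18 for XTH26 around 0.25, -3.90 to 2.55 for XTH12 around -0.67, -3.10 to 1.58 for XTH13 around -0.76 and -0.31 to 2.95 for XTH33 around 1.32, all as 95% confidence intervals on the log2 scale. Each interval included 0, and differences of either sign within it were compatible with these data.

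At an unadjusted p below 0.05 the interaction was passed by 3 members, XTH29, XTH32 and XTH27, or 3 of 29 where 12.4% of all genes passed. XTH29 (adjusted p = 0.233) was above background in 1 of the 4 groups, WT at 4 h, through which alone it entered the test, so that no size is given for its interaction. XTH32 (AT2G36870), with XTH31 the other member of group IIIA, responded by 1.12 and -0.37, an interaction of -1.49 ± 0.65 (adjusted p = 0.394). XTH27 (AT2G01850), known from leaf veins, responded by -0.28 and 0.08, an interaction of 0.36 ± 0.15 (adjusted p = 0.391). XTH20 was called without the 2 arrays that stood apart, at -2.36 (adjusted p = 0.029), whereas its value over the 11 samples was -1.69 (adjusted p = 0.423). Its log2 signal in agb1 at 0 h was 1.87, 1.78 and -0.34, and in WT at 4 h it was 0.80, 0.66 and 1.97. The call was made with both replicates 3 left out together and with neither of them left out alone.

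Before salt, 0 of the 29 members were called between agb1 and WT, against 0.916% of all genes lower and 0.44% higher. At an unadjusted p below 0.05 and at least 2-fold, 1 was higher and 1 lower, where 2.96% of all genes were higher and 3.08% lower. The log2 differences ranged from -1.49 for XTH2 to 1.62 for XTH32, with a median of -0.36 beside 0.00 for all genes, and 20 of 29 lay below 0. The summed level of green shoot genes was 8.5 to 11.2 in WT and 3.68 to 5.21 in agb1 at this time, with 3 of the 8 genes lower at the unadjusted threshold, and its part in the XTH differences was not tested.

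XTH32 had -4.51, -5.49 and -4.71 in WT and -2.76, -2.38 and -3.99 in agb1 at 0 h. The groups did not overlap, and the log2 difference was 1.62 ± 0.48 (adjusted p = 0.121). With 12 arrays as 12 samples it was called at 1.86 (adjusted p = 0.0318). XTH29 had -8.13, -7.66 and -7.72 in WT and -8.17, -9.57 and -9.51 in agb1, not well above background on any of these arrays, so that no fold is given. Without the 2 arrays that stood apart, which leaves 1 sample of agb1 at 0 h, the median of the members was -0.12 and XTH7 differed by 3.25. The count of 0 called members at 0 h also changed in that fit, but no count is given with a single sample. Over all samples XTH7 differed by 1.5 (adjusted p = 0.564), with values in agb1 of -1.54, -1.51 and -5.03.

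After 4 h of salt, 2 of the 29 members were lower in agb1 than in WT and 0 were higher, against 0.92% of all genes lower and 0.353% higher. At an unadjusted p below 0.05 and at least 2-fold, 3 were lower and 1 was higher, where 2.52% and 1.2% of all genes were. The median was -0.27 beside 0.05 for all genes, and 18 of 29 lay below 0. The 2 lower members were XTH29 and XTH22. XTH29 entered the test only through WT at 4 h, the higher group here, so that nothing is read from its place in this count, and XTH22 was the 1 other.

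XTH29 had -5.10, -6.16 and -6.49 in WT at 4 h and -9.32, -8.71 and -9.31 in agb1, where each of the 3 spots missed background. On the same kind of bound the group mean was at least 3.09-fold lower in agb1, again without regard to the spread. The log2 difference of the measured values was -3.20 (adjusted p = 0.00368). The fold, this p-value and the calls that follow are partly set by the filter on dim probes, and no support is drawn from them. The difference was -4.22, -2.82 and -2.56 on slides 1, 3 and 4, and the call held without each array in turn and with the replicate number as a block (adjusted p = 0.0141). It was not made with the 4 h arrays alone and that block, nor under normexp background correction, which adds an offset of 50 to all signals, and the gene could not be tested where probes had to be above background on every array.

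XTH22 had 2.16, 2.53 and 1.57 in WT and 0.81, 0.84 and 0.89 in agb1 at 4 h. All 3 agb1 arrays lay below all WT arrays, with a log2 difference of -1.24 ± 0.24 (adjusted p = 0.0399). It was -1.34, -0.68 and -1.69 on slides 1, 3 and 4. The replicate numbers paired the samples of this comparison, and with them as a block the adjusted p was 0.0805, which left 1 member called. The call was also lost without any one array of WT at 0 h, of agb1 at 4 h, or replicate 1 or 2 of WT at 4 h.

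XTH23 lay just under 2-fold, with 2.13, 1.91 and 1.71 in WT and 1.2, 0.81 and 0.78 in agb1 and a log2 difference of -0.99 ± 0.18 (adjusted p = 0.0325). It was called without the 2 arrays that stood apart. The agb1 arrays were all lower, by 0.93, 0.93 and 1.1 on slides 1, 3 and 4. XTH23 was already lower in agb1 at 0 h by 0.76, without passing (adjusted p = 0.0973), and its interaction was -0.23 (95% confidence interval -0.84 to 0.38). XTH31 had 1.63, 3.07 and 2.49 in WT and 3.86, 3.76 and 3.50 in agb1, a difference of 1.31 ± 0.36 that did not pass (adjusted p = 0.125). XTH20 had 0.80, 0.66 and 1.97 in WT and -0.34, -0.09 and -0.11 in agb1, and its difference of -1.32 did not pass either (adjusted p = 0.288).

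**Figure D4:**
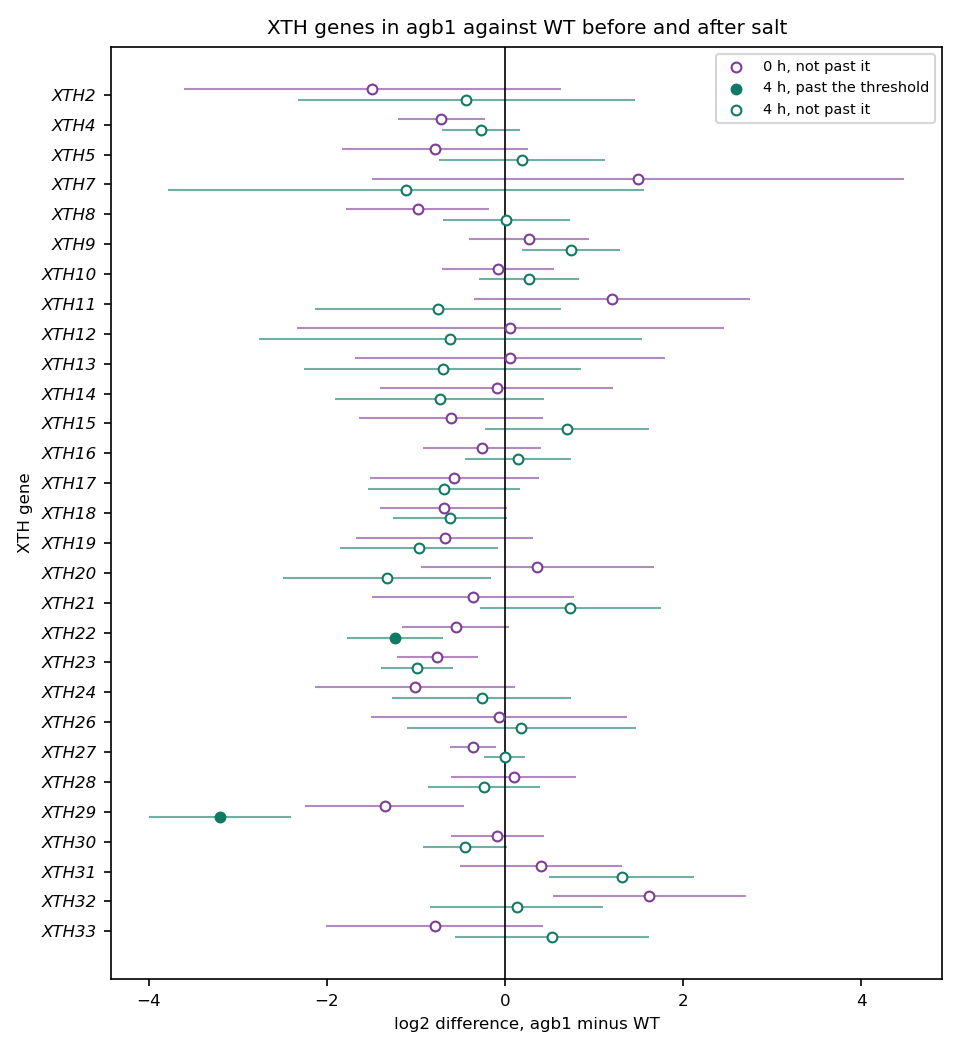
Log2 difference of agb1 from WT before salt (purple) and after 4 h of 150 mM NaCl (green) for the 29 tested XTH genes, with 95% confidence intervals from limma. Filled points passed the threshold. These are XTH29 at -3.20 and XTH22 at -1.24, both at 4 h.

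**Figure D5:**
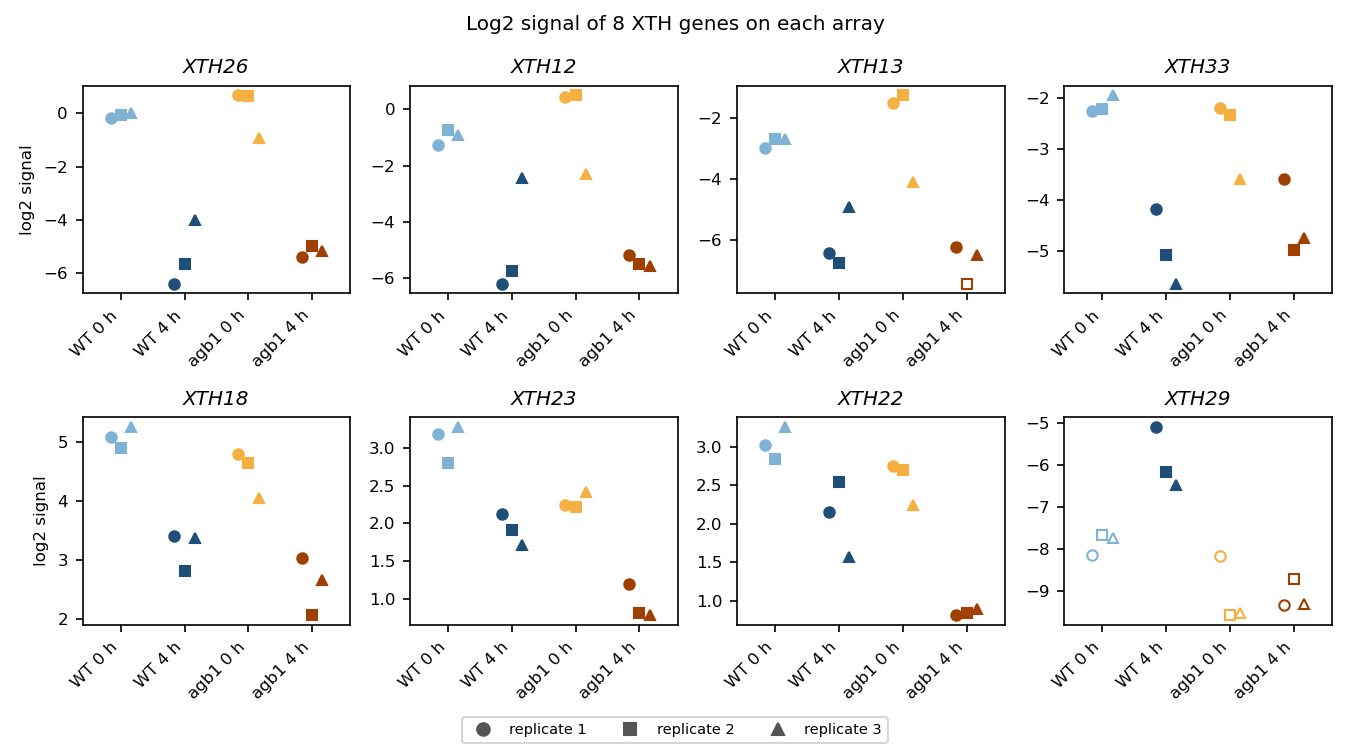
Log2 signal of 8 XTH genes on each array, by group, with circles, squares and triangles for replicates 1, 2 and 3 and open symbols for spots not well above background. XTH22 at 4 h in agb1 lies between 0.81 and 0.89, below every other array, and XTH29 is above background in WT at 4 h alone.

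XTH genes lie partly in clusters. In the order of annotated genes, XTH24, XTH18 and XTH19 are neighbours, as are XTH23 and XTH14, XTH1 and XTH2, and XTH13, XTH25 and XTH22, with XTH12 near XTH13. In WT, XTH24 and XTH18 fell while XTH19 (-1.07) did not pass, and XTH23 fell while XTH14 (-1.01, adjusted p = 0.197) did not. In the last cluster XTH12 and XTH13 fell in WT, XTH22 changed by less than 2-fold, and XTH25 could not be tested.

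The enzymes that make xyloglucan were also measured, by a list of 16 genes for the backbone, its xylose residues and its side chains, all of them tested. In WT 1 of 16 was lower after salt and 0 higher, and in agb1 0 of 16 were called, beside 3.99% and 0.516% of all genes lower. The median log2 difference was -0.37 in WT and -0.54 in agb1. XXT1, a xylosyltransferase that starts the side chains, was the one that fell, from 2.18, 2.63 and 2.61 to 1.35, 1.63 and 1.17 in WT, a log2 difference of -1.09 ± 0.17 (adjusted p = 0.003). Between the genotypes 0 of 16 were called at either time. Of 5 genes for enzymes that trim xyloglucan in the wall, 0 were called in any of the 5 comparisons, beside the shares of all genes given above, with medians of 0.11 in WT and -0.29 in agb1 after salt.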

How the data were processed

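Roots of 4 groups were measured on 12 single-colour Agilent arrays. The authors deposited each array's Feature Extraction output, in which the software had subtracted background from the intensity of each spot without scaling between arrays. Its version is 10.7.1.1 per the file headers and the study's methods, while the submitters' processing notes name version 9.1. The labels and the methods also name different RNA extraction reagents. In R 4.3.3 control spots and outlier spots (2 to 28 per array) were left out, spots of a probe were averaged, and each array's 75th percentile (1772 to 3582) was subtracted on the log2 scale. Probes were kept where all arrays of some group measured them well above background, and of several probes of a gene the brightest was used (6117 genes). Probes were matched to loci through RefSeq names for the TAIR10.1 assembly, 34358 probes to 25433 loci. The arrays' annotation is older, so no coordinates are given. No sequences were used here, so a planned description of motifs and identities was not made.

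Replicates 1 and 2 of agb1 at 0 h spread by 0.0823 over 10831 bright probes, below the 0.149 of repeated spots, with 44 probes over 1.5-fold apart (210 to 2668 in other pairs). They were averaged as 1 sample. WT 0 h replicates 1 and 3 also spread less than repeated spots (0.150 against 0.194), but 352 probes were over 1.5-fold apart and they were kept. The methods state 3 independent replicates.

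A model with a mean for each of the 4 groups was fitted to the 11 samples by lmFit and eBayes of limma 3.58.1. P-values measure the spread between these samples. The number of arrays limits the precision. On simulated data with 100 genes changed 4-fold among 25168, the fit recovered 82 for the salt response in WT at an adjusted p below 0.05 alone. A further 100 were changed 2-fold, and their recovery is not given here. The simulated noise was independent between arrays, without slide effects or arrays that stood apart, so the result holds for that setting only. The arrays lay on 4 slides. Slide 1 held all replicates 1, slide 3 all replicates 3, slide 2 WT 0 h replicate 2 alone and slide 4 the other replicates 2. Deviations from group means correlated by 0.351 to 0.582 between same-numbered arrays of WT and agb1 at 4 h, so the numbers pair those. Elsewhere they did not pair them (-0.197 to 0.212).

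Members that passed a comparison were named, at most 8 a direction by size, with those past an unadjusted threshold between genotypes (at most 6), AGB1, and listed genes that passed. The members, lists and rules were chosen with earlier results of these data known. Alternatives were other background corrections, scalings, filters, probe rules, blocks, sample sets and weights, and leaving out each array.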

Additional observations from a re-analysis of the deposited data

Results flagged for a closer look

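Differences between the 2 genotypes' salt responses at an unadjusted p below 0.05 were noted for 3 members. XTH29 differed by -1.85, XTH32 by -1.49 and XTH27 by 0.36, as the response in agb1 minus that in WT on the log2 scale. The adjusted p-values of limma were 0.233, 0.394 and 0.391, so that none of the 3 passed, and 12.4% of all genes tested had an unadjusted p below 0.05. XTH29 was above background in WT at 4 h alone and entered the test through that group, so that its value is a difference of measured signals of which 3 groups were not above background, and no size of a response is read from it.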

How the results depend on the processing

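Of the 29 tested members, XTH26, XTH33, XTH18, XTH8 and XTH23 were called lower in WT after salt under all 16 other settings and without each of the 12 arrays in turn. The lower count of 11 in WT became 7 under normexp background correction and 5 with slide as a fixed block. It rose to 12 with median scaling and to 16 with array weights, where XTH31 was no longer called. The higher count of 1 (XTH29) became 0 under normexp, with slide as a fixed block, with probes above background on every array, and under the repeated normexp below. The share of all genes called in WT was 9.8% in the main fit, 3.55% under normexp and 4.5% with slide as a fixed block. It was 9.9% with median scaling and 14.7% with array weights. In agb1 the lower count of 5 became 0 under normexp and with slide as a fixed block, and 1 with only the groups compared. It became 11 with 12 arrays as 12 samples and with slide as a random block. The share of all genes called in agb1, 1.66% in the main fit, was 0.0714%, 0.385%, 0.214%, 5.54% and 5.53% in these settings. Between genotypes at 0 h the higher count of 0 became 1 with 12 arrays as 12 samples and with slide as a random block. There 4.19% and 4.15% of all genes were called, against 1.36% in the main fit. The unadjusted count of 2 at 0 h became 1 with probes above background on every array and under the repeated normexp, and 4 with only the groups compared. At 4 h the lower count of 2 became 0 under normexp and with the 4 h arrays alone and the replicate block. It became 1 with the replicate block, slide as a fixed block, only the groups compared, no filter on dim probes, probes above background on every array, and the repeated normexp. The higher count of 0 at 4 h became 1 with array weights. The unadjusted interaction count of 3 became 7 with 12 arrays as 12 samples and with slide as a random block. Shares of all genes at the unadjusted thresholds were not taken in the alternatives, so these counts are not read further. The cause of the changes in this paragraph was not tested except for normexp.

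Leaving out 1 array at a time gave 7 (without WT 0 h replicate 3) to 13 lower in WT, and 1 (without agb1 4 h replicate 2) to 8 (without WT 4 h replicate 3) in agb1. It gave 2 to 4 at 0 h and 1 to 8 for the interaction at the unadjusted thresholds, the 4 without WT 4 h replicate 3 and the 8 without agb1 0 h replicate 3, and 1 to 3 lower at 4 h.

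XTH29 turned its direction under normexp, to -1.54 for salt in WT and 0.74 for agb1 against WT at 4 h. That fit failed on 3 arrays, replicates 2 and 3 of WT at 0 h and replicate 3 of agb1 at 4 h. The tenth percentile of the corrected signal was 314, 948 and 553 on these and 62.8 to 69.3 on the other 9. The 3 arrays held 2, 4 and 3 spots more than 100 units below their local background. Without those spots the tenth percentile was 62.8 to 71.2 on all 12 arrays, and 12 members were lower in WT, 4 in agb1 and 1 (XTH22) in agb1 against WT at 4 h. XTH29 then differed by 0.13 and -0.20, not called, and the part of the offset of 50 in this was not tested. This repeated normexp and the setting without the 2 arrays that stood apart were added after the data were seen.

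The replicate block changed no call other than those of XTH24 in WT (adjusted p = 0.0654), XTH13 in agb1 (adjusted p = 0.0843) and XTH22 at 4 h. Low signals limit what XTH2, XTH13 and XTH29 can show, as their probes lay near background on some arrays.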
